A study of Mus musculus with 6 samples.

Results

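The regions described here are stretches of the mouse genome where Lsd1 ChIP-seq gave a peak in both adipogenic libraries of C2C12 cells and in no myogenic library. They were chosen by the measured peaks themselves: the peaks of the 3 libraries were pooled, peaks sharing at least 1 bp were merged, and merged regions holding a peak of WT_AD and of OELsd1_AD but none of WT_HS were kept. This gave 1389 of 56729 merged regions (2.45%), or 10.6% of the 13053 regions with a peak in both adipogenic libraries. The presence or absence of a peak is therefore the selection and not a result, and the peak values below are given as a description.

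C2C12 is a mouse myoblast line that forms muscle fibres in low serum and can be turned towards adipocytes by an adipogenic cocktail. Cells were collected on day 1 of differentiation, and chromatin was precipitated with an antibody against the C-terminus of Lsd1. WT_HS stands for wild-type cells in myogenic medium with 2% horse serum. WT_AD stands for wild-type cells in adipogenic medium, which held 10% FCS, the glucocorticoid dexamethasone (5 µM), the phosphodiesterase inhibitor isobutylmethylxanthine (0.5 mM), the PPARγ agonist rosiglitazone (1 µM), insulin (850 nM), thyroid hormone T3 (1 nM) and indomethacin (125 nM). OELsd1_AD stands for cells with Flag-tagged LSD1 in the same adipogenic medium, a stable line made by lentiviral transduction and selection in which doxycycline turns on the transgene through a tetracycline-dependent promoter. Only these cells received doxycycline according to the labels, before and during differentiation, so line, LSD1 level and doxycycline cannot be told apart between WT_AD and OELsd1_AD. Each condition had 1 ChIP library and 1 input library. There is thus no replicate error, no test between conditions, and every difference is one between single libraries. WT_HS differs from the adipogenic libraries in serum and in each compound of the medium. Shares of regions or genes are given with 95% Wilson intervals, which cover counting error only, and regions or genes are not replicates.

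Lsd1 (Kdm1a) is a demethylase that removes mono- and dimethyl marks from histone H3, mainly at lysine 4, and it works in complexes with CoREST and histone deacetylases. It lacks sequence specificity of its own and is brought to promoters and enhancers by transcription factors. In early adipogenesis, C/EBP factors and the glucocorticoid receptor, which dexamethasone activates, bind distal elements ahead of Pparg, the main regulator of fat cell formation, while MyoD family factors bind E-boxes in myoblasts.

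The first stretches show what the adipogenic regions look like where they hold a full glucocorticoid response element (GRE), the palindrome bound by the receptor as a dimer and searched here as GNACANNNTGTNC. A match was looked for in 300 bp around the summit of the highest-scoring peak of each region. Of the 8 regions with a match that ranked highest by the lower of their 2 adipogenic scores, 7 are shown by 120 bases each, named by the nearest gene, in mm10 coordinates and on the plus strand, with the GRE match in capitals.
Actn1, chr12:80203421-80203540: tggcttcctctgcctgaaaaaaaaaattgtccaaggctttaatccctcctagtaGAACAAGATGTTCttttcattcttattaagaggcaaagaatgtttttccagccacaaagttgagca
Gm7271, chr5:76437300-76437419: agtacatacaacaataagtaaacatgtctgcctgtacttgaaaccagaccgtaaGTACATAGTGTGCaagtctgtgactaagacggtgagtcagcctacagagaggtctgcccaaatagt
Epn2, chr11:61608305-61608424: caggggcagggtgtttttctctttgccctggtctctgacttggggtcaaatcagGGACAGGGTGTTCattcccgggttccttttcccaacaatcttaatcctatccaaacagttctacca
Agmat, chr4:141767392-141767511: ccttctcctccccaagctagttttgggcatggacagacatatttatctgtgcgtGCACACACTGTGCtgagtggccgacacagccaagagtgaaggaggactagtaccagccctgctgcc
Nfil3, chr13:52986030-52986149: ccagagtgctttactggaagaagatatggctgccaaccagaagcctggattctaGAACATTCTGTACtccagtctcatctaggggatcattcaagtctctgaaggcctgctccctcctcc
Cenpm, chr15:82247296-82247415: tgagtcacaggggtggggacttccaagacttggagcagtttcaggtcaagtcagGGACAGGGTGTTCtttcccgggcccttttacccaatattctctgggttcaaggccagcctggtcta
Tsc22d3, chrX:140513501-140513620: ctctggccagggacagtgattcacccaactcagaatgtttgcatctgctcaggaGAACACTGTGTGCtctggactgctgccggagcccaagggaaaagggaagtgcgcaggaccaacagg

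The match lay within 117 bp of the summit in all 7 stretches. At Actn1 and Agmat the arms were palindromic. Epn2 and Cenpm held the same 13 bases, and their stretches shared 56 of 120 bases, the most among the 7. None of the 21 regions with a GRE match (0%, 0 to 15.5%) had it in bases that the genome file marks as repeats, compared with 8.504% of all 341 regions with a match.

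The next stretches show the C/EBP match TTGCNNAA on either strand, in capitals. The first 4 belong to the regions ranked highest that hold this match, and the last lies in an intron of Pparg. These 5 were picked after the values had been seen.
Cpt1a, chr19:3334220-3334339: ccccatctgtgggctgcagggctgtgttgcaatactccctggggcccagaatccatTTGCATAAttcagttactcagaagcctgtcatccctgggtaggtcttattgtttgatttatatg
Slc39a14, chr14:70341617-70341736: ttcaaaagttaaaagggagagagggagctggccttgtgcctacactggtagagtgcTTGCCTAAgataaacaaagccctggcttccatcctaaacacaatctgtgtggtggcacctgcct
Creb3l2, chr6:37399520-37399639: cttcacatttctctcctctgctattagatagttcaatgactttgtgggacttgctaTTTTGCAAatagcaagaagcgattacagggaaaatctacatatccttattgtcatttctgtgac
Slc25a17, chr15:81341455-81341574: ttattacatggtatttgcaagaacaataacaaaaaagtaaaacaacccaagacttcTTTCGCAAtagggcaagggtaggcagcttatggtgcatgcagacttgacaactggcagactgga
Pparg, chr6:115462871-115462990: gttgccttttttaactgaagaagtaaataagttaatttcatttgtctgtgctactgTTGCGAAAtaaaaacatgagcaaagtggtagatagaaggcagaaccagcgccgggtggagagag

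In each of these 5 the match was within 143 bp of the summit. The Cpt1a, Slc25a17 and Pparg windows of 300 bp also held a match to AP-1 (TGANTCA), the site of Fos and Jun dimers.

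Each deposited peak carries its count of ChIP tags and a score, 10 times −log10 of the MACS p-value against the library's own input, which cannot be below 50 at the cut-off used. The ChIP libraries held from 46155625 to 63915769 filtered tags and the lists from 18893 peaks in WT_AD to 43426 in WT_HS. WT_HS was thus the longest list although it came from the fewest ChIP tags. MACS multiplied the ChIP tags of each library to match its input, by 1.90 in WT_HS, 1.82 in OELsd1_AD and 1.28 in WT_AD. The lists had the same order of length, with 33533 peaks in OELsd1_AD, and whether the scaling set that order was not tested. A region without a WT_HS peak is not a region without WT_HS tags, as the lists give no tag count outside peaks, and the smallest count of any WT_HS peak was 27 tags. The nearest WT_HS peak lay a median of 4676 bp away. It was within 1000 bp at 274 regions (19.7%, 17.7 to 21.9%) and within 5000 bp at 716 (51.5%, 48.9 to 54.2%). Just inside the rule were regions at 1700052I22Rik and Dync2li1, each 3 bp from a WT_HS peak, and at Sil1, 11 bp away. Just outside it were regions at Apbb2, Itgb3 and Zeb2, where a WT_HS peak overlapped an adipogenic peak by 27, 29 and 32 bp, with WT_HS scores of 59.1, 308 and 83.1. At the score threshold, the regions with the lowest adipogenic score were at Airn (50 in WT_AD), Lst1 (50.01 in OELsd1_AD) and Wasf2 (50.01 in WT_AD).

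By their medians, the regions were shorter and weaker than those of all 3 libraries. They were longer than those of each other class, and higher in score within an adipogenic library where both had peaks of it. Regions of WT_HS alone have no adipogenic score to compare. Their median length was 1302 bp, from 671 to 6359 bp, and 1346 of 1389 (96.9%) held a single peak of each adipogenic library. Scores ranged from 50 to 439 in WT_AD, with a median of 86.5, and from 50.01 to 2622 in OELsd1_AD, with a median of 130. In regions held by all 3 libraries, the median length was 1937 bp and the median scores were 152 in WT_AD and 275 in OELsd1_AD. In the other classes the median length ran from 728 to 1288 bp. Median WT_AD scores were 82.9 in regions of both wild-type libraries and 67.4 in those of WT_AD alone. Median OELsd1_AD scores were 113 in regions of WT_HS and OELsd1_AD and 68.9 in those of OELsd1_AD alone. Both scores reached 100 at 363 regions (26.1%, 23.9 to 28.5%), and the OELsd1_AD score was the higher at 962 (69.3%, 66.8 to 71.6%). Since MACS multiplied ChIP tags by 1.28 in WT_AD and by 1.82 in OELsd1_AD to match the input, the scores are not on equal terms.

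**Figure D1:**
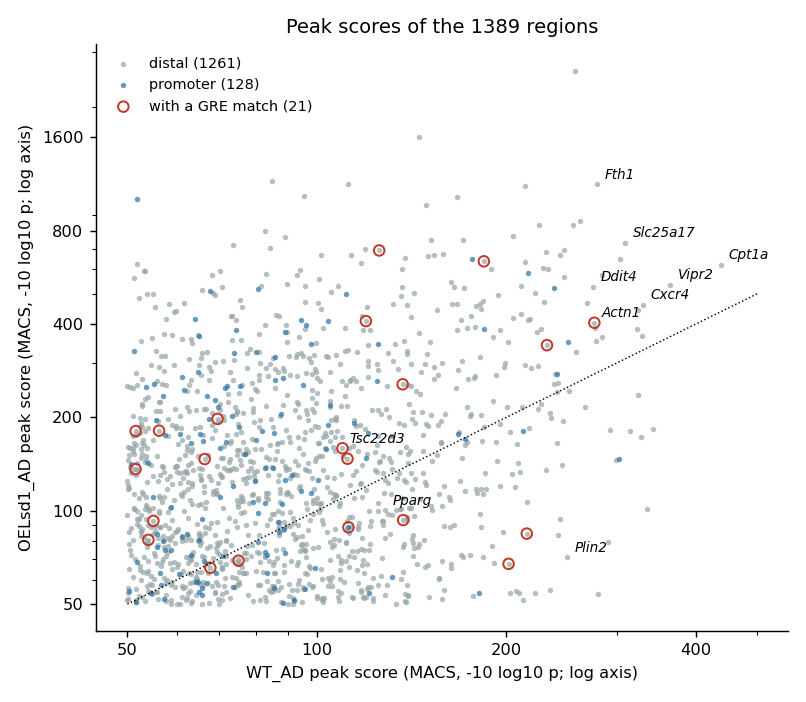
Score of the WT_AD peak against the score of the OELsd1_AD peak at each of the 1389 regions, both on log axes, with promoter regions in blue, distal ones in grey, regions with a GRE match circled, 10 genes named and the dotted line marking equal scores. Most points lie above the line, 962 of 1389, and the WT_AD scores end at 439.

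Tag density, in tags per kb of peak and per 1000000 filtered ChIP tags, does not carry that scaling. Its median was 1.09 in WT_AD and 1.15 in OELsd1_AD, and the median log2 ratio of OELsd1_AD to WT_AD was 0.08, from -0.55 to 0.93. Regions of all 3 libraries had a median log2 ratio of 0.14. OELsd1_AD was the denser at 897 of the 1389 regions (64.6%, 62.0 to 67.1%), compared with 71.9% (71.0 to 72.7%) of the regions of all 3 libraries. Tag counts are summed over the peak as called in each library, so a longer call gives more tags, and the log2 density ratio (OELsd1_AD to WT_AD) is given beside counts that differ. The density in turn depends on where the call ends. Where a library had 2 peaks in a region, the count is that of the higher-scoring peak only. Among the regions named below, this held for OELsd1_AD at Mef2d and Ddit4 and for WT_AD at Fth1, among others.

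The region with the highest WT_AD score lay in an intron of Cpt1a, which encodes the enzyme that lets long-chain fatty acids enter mitochondria. This region, chr19:3332692-3334855, centred 10472 bp downstream of the transcription start site (TSS), had 203 tags and a score of 439 in WT_AD and 184 tags and a score of 622 in OELsd1_AD. A further Cpt1a region in an intron, chr19:3352684-3354304, had 92 and 124 tags. Both held a C/EBP and an AP-1 match. The nearest WT_HS peak was 6275 bp from the stronger region.

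Several of the 15 regions ranked highest by the lower score lay at genes of metabolism and transport. Slc25a17, a carrier of cofactors in the peroxisomal membrane, had an intronic region with 170 and 227 tags (WT_AD and OELsd1_AD, in this order here and below). Pank3, a kinase in the first step of coenzyme A synthesis, had 141 and 168 tags at a region 18721 bp upstream of its TSS. Slc39a14, a zinc and iron transporter, had 147 and 128 tags in an intron. Fth1, the heavy chain of ferritin, which stores iron, was nearest to a region with 161 and 307 tags, and its OELsd1_AD score of 1126 was the highest among the 15. The log2 density ratios were 0.47 at Slc25a17, 0.21 at Pank3 and 0.35 at Fth1, and -0.09 at Slc39a14.

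Of the others, 5 are described here. Vipr2, a receptor for vasoactive intestinal peptide that raises cAMP, had an intronic region with 166 and 176 tags and scores of 364 and 535. Cxcr4, the receptor of the chemokine Cxcl12, had 148 and 160 tags at a region 24689 bp downstream of its TSS. Creb3l2, a transcription factor of the secretory pathway, had 149 and 154 tags in an intron. At these 3 the log2 density ratios were -0.02, -0.07 and -0.15. Actn1, an actin crosslinker, had 128 and 149 tags at the intronic region with the GRE shown above. Ddit4, an inhibitor of mTORC1 signalling that glucocorticoids induce, had 209 and 201 tags at a region 21468 bp upstream, which a gap of 20 bp parted from a WT_HS peak. The remaining regions of the 15 were nearest to Cdrt4os1, Efcab1, Phf20, Gm17227 and Morn4, with 115 to 167 tags in WT_AD and 129 to 170 in OELsd1_AD.

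By the position of their centres, 628 regions (45.2%, 42.6 to 47.8%) were intergenic and 608 (43.8%, 41.2 to 46.4%) lay in introns of curated RefSeq transcripts. Promoters, taken as 2000 bp on either side of a TSS, held 128 (9.22%, 7.80 to 10.9%), whereas 23.6% of all merged regions and 45.8% (44.9 to 46.7%) of those in all 3 libraries were at promoters. The share was 8.30% (7.19 to 9.56%) among regions of WT_AD alone and 9.81% (9.29 to 10.4%) among those of OELsd1_AD alone. Coding exons held 11 regions, 3′ UTRs 8, exons of noncoding transcripts 4 and 5′ UTRs 2. The median distance to the nearest TSS was 22357 bp, compared with 3876 bp in regions of all 3 libraries, and 1023 regions (73.7%, 71.3 to 75.9%) lay within 50000 bp of a TSS. The sequence around the summits had a median GC content of 49.7% and a median ratio of observed to expected CpG of 0.20, against 56.3% and 0.38 in regions of all 3 libraries. The intervals of the promoter share overlapped between these regions and those of either adipogenic library alone.

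**Figure D2:**
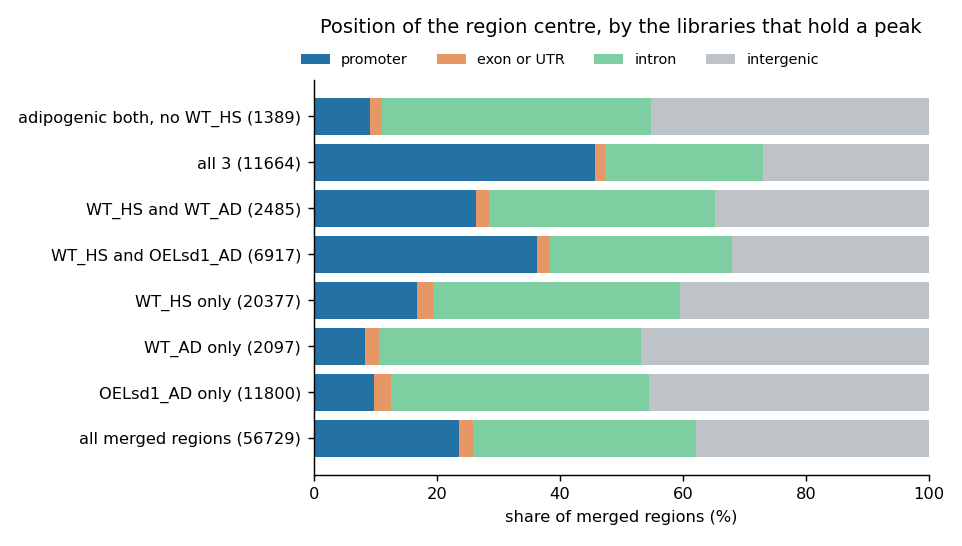
Share of merged regions, in percent, whose centre lies at a promoter, in an exon or UTR, in an intron or between genes, for each combination of libraries that holds a peak, with the number of regions in brackets. The 3 classes without a WT_HS peak have promoter shares from 8.30 to 9.81%, and the class of all 3 libraries has 45.8%.

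Of the 10 highest-ranked promoter regions, the nearest genes were protein-coding or noncoding genes of varied function. Apon, which encodes apolipoprotein N, had a region 359 bp upstream of its TSS with 127 and 137 tags and scores of 250 and 350. Galnt9, a glycosyltransferase that starts O-linked sugar chains, had 139 and 178 tags at 500 bp upstream. Enpp3, an ectonucleotide pyrophosphatase, had 132 and 130 tags at 1028 bp downstream. Snx25, a sorting nexin of endosomes, had 128 and 82 tags, and Krt86, a hair keratin, had 100 and 134 tags. The others were at 8430426J06Rik, AU019990, Gm12415, 1700060C20Rik and 4933411K16Rik, with WT_AD scores from 176 to 302. C/EBP matches were found at AU019990, Galnt9 and Enpp3, and 4933411K16Rik had an OELsd1_AD score of 147 below its WT_AD score of 302. Among all 128 promoter regions the SP/KLF box GGGCGG was present in 42 (32.8%, 25.3 to 41.3%), compared with 73 of the 1261 distal ones (5.79%, 4.63 to 7.22%).

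Sequence content was not used by the rule, and 20 motifs were counted on both strands in the 300 bp windows. A C/EBP match was present in 254 of 1389 regions (18.3%, 16.3 to 20.4%), compared with 11.7% of all merged regions. The share was 15.1% (13.6 to 16.7%) in regions of WT_AD alone, 14.8% (14.1 to 15.4%) in those of OELsd1_AD alone, 9.98% (8.86 to 11.2%) in those of both wild-type libraries, 9.79% (9.26 to 10.3%) in those of all 3 and 11.04% (10.6 to 11.47%) in those of WT_HS alone. The classes without a WT_HS peak therefore held more C/EBP matches than each class with one listed here, beyond counting error. Promoter shares differed too, from 8.30 to 9.81% in the former and from 16.7 to 45.8% in the latter. The GRE was present in 21 regions (1.51%, 0.991 to 2.30%), compared with 0.601% of all merged regions. It was found in 0.81% (0.507 to 1.29%) of regions of WT_AD alone, 0.80% (0.651 to 0.974%) of OELsd1_AD alone, 0.52% (0.407 to 0.671%) of all 3 and 0.47% (0.382 to 0.570%) of WT_HS alone. The interval of the GRE share overlapped that of WT_AD alone. Among distal regions the GRE share was 1.59% (1.03 to 2.44%), against 0.701% (0.627 to 0.784%) of all distal merged regions and 0.81% (0.614 to 1.06%) of distal regions of all 3 libraries, whose interval overlapped. Its single arm AGAACA, which can be part of a GRE, was in 25.3% (23.1 to 27.7%) against 21.9% of all merged regions.

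AP-1 was found in 333 regions (24.0%, 21.8 to 26.3%), compared with 18.6% of all merged regions, and the E-box of MyoD, CAGCTG, in 417 (30.02%, 27.7 to 32.5%), compared with 25.5%. In regions of all 3 libraries these shares were 19.4% (18.7 to 20.1%) and 29.6% (28.8 to 30.4%). Among distal regions the order against all 3 libraries was the opposite. There, AP-1 was present in 24.9% (22.6 to 27.4%) and the E-box in 30.9% (28.4 to 33.5%), whereas distal regions of all 3 libraries held them in 30.4% (29.3 to 31.6%) and 38.5% (37.4 to 39.8%), and all distal merged regions in 22.1 and 27.4%. For C/EBP the order was the same, with 18.95% (16.9 to 21.2%) of the distal regions against 12.6% (11.8 to 13.4%) of distal regions of all 3 libraries and 12.9% of all distal ones. An AP-1 and a C/EBP match occurred together in 73 regions (5.26%, 4.201 to 6.56%), compared with 2.46% (2.34 to 2.59%) of all merged regions.

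Of the other motifs, STAT (TTCNNNGAA) was present in 10.6% (9.07 to 12.3%) against 8.30% of all merged regions, and RUNX (TGTGGT) in 27.7% (25.4 to 30.1%) against 24.8%. TEAD (GGAATG) was in 16.1% (14.2 to 18.1%) against 17.3%, the cAMP response element TGACGTCA in 0.936% (0.548 to 1.59%) against 0.751%, and the DR1 element of PPARγ and RXR in 0.432% (0.198 to 0.939%) against 0.545%. The SP/KLF box was in 8.28% (6.94 to 9.85%) against 17.5%, and the AT-rich MEF2 site in 0.288% (0.112 to 0.738%) against 0.658%. Intervals of the TEAD, cAMP response element, DR1 and MEF2 shares included the share of all merged regions. A match is a run of letters and does not show that a factor was bound.

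**Figure D3:**
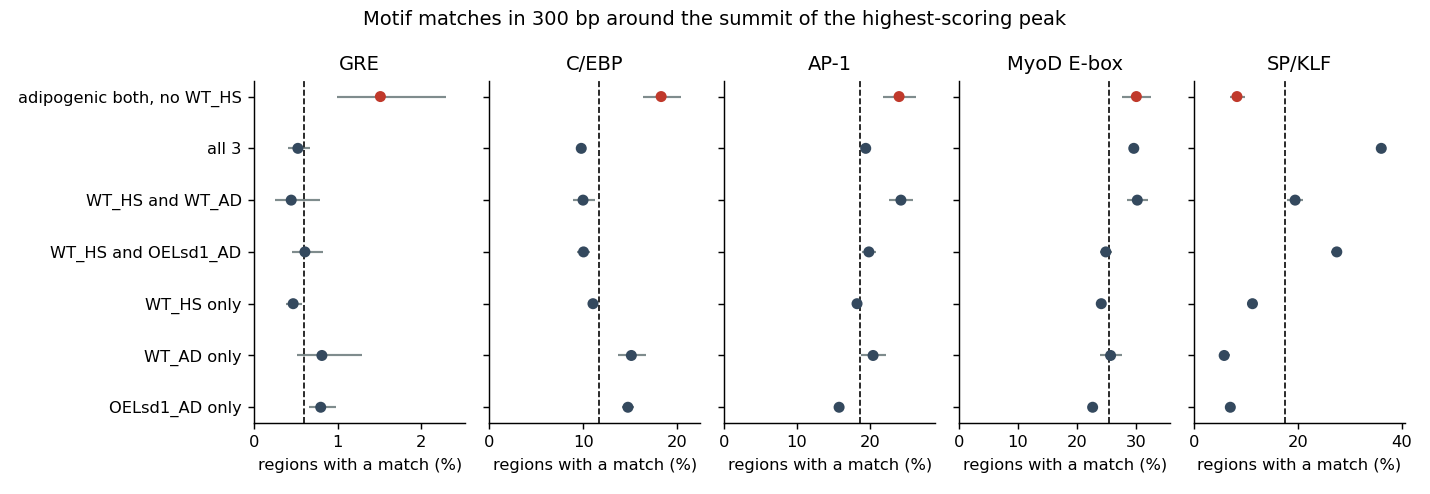
Share of regions, in percent, with a match to 5 motifs in 300 bp around the summit, for each combination of libraries, with 95% Wilson intervals as bars and the share of all merged regions as a dashed line. The regions of both adipogenic libraries, in red, stand at 1.51% for the GRE and 18.3% for C/EBP, to the right of the other classes.

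The position of the matches was also compared, as matches near the summit against matches in the flanks of the same regions. In the regions of both adipogenic libraries, GRE matches numbered 19 within 100 bp of the summit and 20 between 500 and 1000 bp from it, or 6.84 and 1.44 per kb and 100 regions, a ratio of 4.75. In regions of WT_AD alone and OELsd1_AD alone this ratio was 1.33 and 1.51, and in the 4 classes with a WT_HS peak it ran from 0.86 to 1.36. The GRE counts are small: a bin of 100 bp outside both zones held 10 matches, against 13 in the highest bin at the summit. For C/EBP the ratio was 1.67, with 205 matches near the summit, compared with 1.34 for WT_AD alone and 1.31 for OELsd1_AD alone, and with 0.81 to 0.94 in the 4 classes with a WT_HS peak. C/EBP matches were thus denser at the summit than in the flanks in the 3 classes without a WT_HS peak only. AP-1 and the E-box were denser at the summit in every class, with ratios of 2.95 and 2.53 here and of 2.51 and 2.40 in all 3 libraries.

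**Figure D4:**
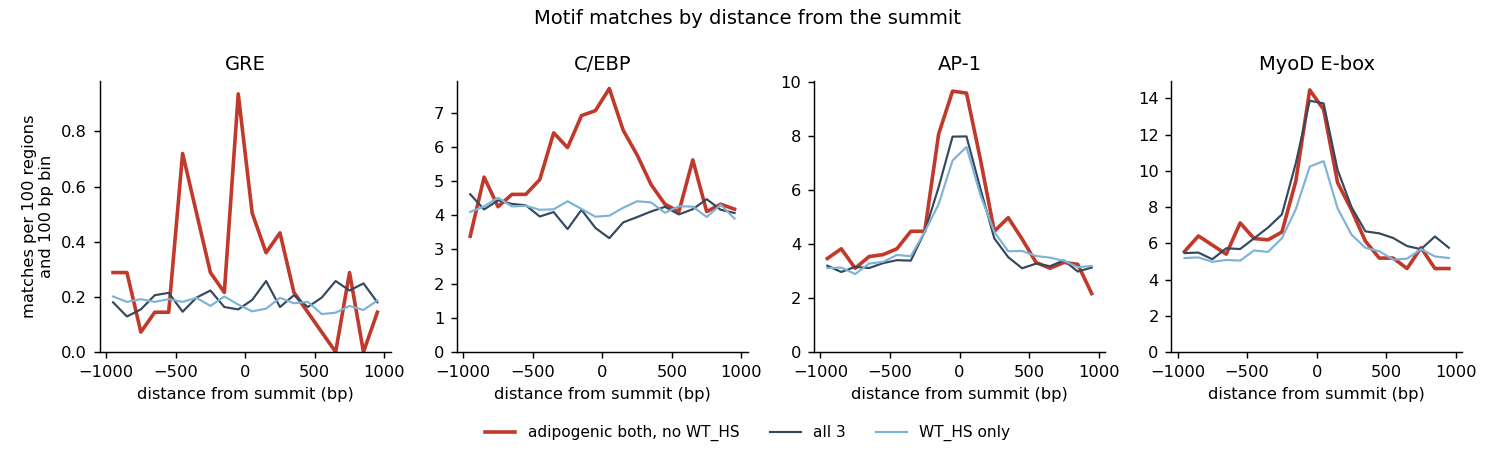
Matches per 100 regions in bins of 100 bp, by distance from the summit in bp, for 4 motifs in regions of both adipogenic libraries (red), of all 3 libraries (dark) and of WT_HS alone (light blue). The C/EBP line of the adipogenic regions rises at the summit, with a ratio of centre to flank of 1.67, while those of the other 2 classes do not, with 0.81 and 0.94.

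Along the lower of the adipogenic scores, split into 4 groups of equal size from the weakest to the strongest, C/EBP matches were present in 17.8, 12.7, 18.7 and 23.9% of regions. AP-1 was present in 18.97, 23.6, 26.5 and 26.8%, while the E-box stayed between 28.7 and 31.1%. Promoter shares were 9.77, 11.2, 10.1 and 5.76%. The strongest group, with lower scores from 101.4 to 439, thus held the most C/EBP matches and the fewest promoters. Its C/EBP interval, 19.7 to 28.7%, overlapped that of the weakest group, 14.2 to 22.2%, so no steady rise with score was seen.

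The nearest genes numbered 1134, which is 4.33% of the 26180 annotated genes and 7.17% of the genes nearest to at least 1 merged region. Most of them, 946, were nearest to a single region, while 12 were nearest to 4, 1 to 5 and 2 to 6. Of the genes nearest to a distal region, 443 of 1023 (43.3%, 40.3 to 46.4%) also had a promoter region held by all 3 libraries. This share was 40.6% (38.9 to 42.2%) for genes nearest to a distal region of all 3 libraries and 32.8% (31.8 to 33.9%) for those nearest to a distal region of WT_HS alone. It was 41.2% (38.8 to 43.7%) for those nearest to a distal region of WT_AD alone, 34.8% (33.5 to 36.1%) for OELsd1_AD alone and 31.0% (30.2 to 31.9%) for any distal merged region. The interval overlapped those of WT_AD alone and of all 3 libraries, but not those of OELsd1_AD alone, WT_HS alone or any distal region. In gene lists, the shares of all genes and of genes with a region are the background against which counts are to be read. The part of gene length in these shares was not tested.

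Glucocorticoid-induced genes had the highest share among the 16 lists, with 8 of 26 nearest to a region (30.8%, 16.5 to 49.99%). The count was 2 with peaks of an FDR of at most 0.1% and 4 with scores of at least 100. They were Tsc22d3, Sgk1, Dusp1, Nfkbia, Ddit4, Rgs2, Pik3r1 and Glul, and none of their regions was at a promoter. Tsc22d3 encodes GILZ, an anti-inflammatory leucine zipper protein, and its region with a GRE had 78 and 75 tags and scores of 110 and 159. Sgk1, a kinase that regulates ion channels and transporters, had 118 and 96 tags at a region 80536 bp upstream, with a C/EBP and an AP-1 match. Rgs2, which shortens signalling by G proteins, was nearest to 4 regions with 58 to 85 tags in WT_AD and 36 to 76 in OELsd1_AD, of which the nearest to its TSS held a GRE. Rgs2 was named after its values had been seen. Ddit4 and Pik3r1, the regulatory subunit of PI3-kinase, were each nearest to 3. Regions of WT_AD alone were likewise nearest to 8 genes of this list, and those of OELsd1_AD alone and of all 3 libraries to 19 each, where the shares over all genes were 6.36, 22.6 and 27.5%.

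Genes of cAMP signalling, which isobutylmethylxanthine raises by blocking phosphodiesterases, had regions at 4 of 23 (17.4%, 6.98 to 37.1%). They were the phosphodiesterases Pde8a, Pde4b and Pde10a, and Prkar2b, a regulatory subunit of protein kinase A. All genes gave 4.33%. This list was likewise above all genes in classes with a WT_HS peak. Its shares were 73.9% for all 3 libraries and 65.2% for WT_HS alone, where all genes gave 27.5 and 36.6%. Pde4b was nearest to 4 regions, the strongest by lower score with 123 and 59 tags and a centre in its 3′ UTR. Pde8a had scores of 200.4 and 216 at 14518 bp upstream. Insulin and IGF pathway genes had regions at 4 of 20 (20.0%, 8.07 to 41.6%). Their share was 80.0% both for all 3 libraries and for WT_HS alone. Igfbp4, which binds IGFs outside the cell, had 85 and 176 tags in an intron, while Igfbp5 had 98 and 42 and Irs2, an adaptor of the insulin receptor, had 53 and 33. Pik3r1, counted in this list too, had 76 and 84 tags at its strongest region. The larger Igfbp4 count in OELsd1_AD came with a longer call, and its log2 density ratio was 0.06. At Igfbp5 the ratio was -0.29.

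Adipogenic transcription regulators had regions at 7 of 32 (21.9%, 11.02 to 38.8%), namely Pparg, Ppard, Klf4, Ebf1, Srebf1, Nfib and Glis1. Glis1 was described as a pro-adipogenic factor by the same study, so its place here is not independent, and it is counted again in a study list below. All genes gave 4.33%. The list was likewise above all genes in classes with a WT_HS peak. Regions of all 3 libraries were nearest to 21 of the 32, those of both wild-type libraries to 8 and those of WT_HS alone to 24. All genes gave 27.5, 8.04 and 36.6% there. Within 50000 bp of a TSS, 5 of the 32 (15.6%) had a region, compared with 8.01% of all genes. The Pparg region, chr6:115462600-115464081, lay in an intron 41274 bp downstream of the TSS and 28713 bp from the nearest WT_HS peak. It had 103 tags and a score of 128 in WT_AD and 58 tags and a score of 100.6 in OELsd1_AD. Ppard, a fatty acid receptor of the same family, had 80 and 71 tags in an intron. Srebf1, an activator of lipid synthesis, had regions on both sides of its TSS, the stronger with 77 and 63 tags. Klf4 was nearest to a region 184084 bp upstream with 110 and 39 tags. The log2 density ratios at Pparg, Ppard, the stronger Srebf1 region and Klf4 were -0.02, 0.08, 0.18 and -0.20. Differences in called length and in library depth are both taken out of these ratios.

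Adipocyte and lipid genes had regions at 5 of 30 (16.7%, 7.34 to 33.6%). Acsl1, which activates fatty acids with coenzyme A, had 121 tags and a score of 242 in WT_AD and 51 tags and a score of 83.5 in OELsd1_AD. Plin2, a coat protein of lipid droplets, had 155 and 41 tags at 16318 bp upstream, with scores of 250 and 70.9. Their log2 density ratios were -0.48 and -0.25. Scd1, the desaturase that makes oleate, had 55 and 104 tags at its stronger region, and Dgat1, which completes triglyceride synthesis, had 82 and 116. The ratios there were 0.35 and 0.34, the other way. Adipoq, the adipokine adiponectin, named after its values had been seen, had 45 and 42 tags at a region 13672 bp downstream of its TSS, with the nearest WT_HS peak 31434 bp away.

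None of 32 sarcomere and contractile genes was a nearest gene (0%, 0 to 10.7%), an interval that includes the 4.33% of all genes. In the other classes, which are larger, regions of both wild-type libraries were nearest to 6 (18.75%) and those of WT_HS alone to 21 (65.6%). All genes gave 8.04 and 36.6% there. The list's share was 37.5% for all 3 libraries and 31.25% for OELsd1_AD alone, where all genes gave 27.5 and 22.6%. It was 15.6% for WT_HS with OELsd1_AD and 9.38% for WT_AD alone, where all genes gave 19.3 and 6.36%. Within 50000 bp of a TSS, 3 of the 32 (9.38%) had a region, compared with 8.01% of all genes. Of 24 myogenic regulators, 3 were nearest to a region (12.5%, 4.34 to 31.0%), an interval whose lower end is close to the share of all genes. Mef2d, a transcription factor of muscle differentiation, had 154 and 93 tags at 3740 bp upstream, 366 bp from a WT_HS peak. Eya4, a transcriptional coactivator, had 113 and 43 tags in an intron, and Vgll2, a cofactor of TEAD factors in muscle, had 104 and 51 tags at 47158 bp upstream. The log2 density ratios were -0.02, -0.24 and -0.14. The AP-1 factor genes (0 of 13, 0 to 22.8%) and the genes of Lsd1 and its CoREST complex (0 of 18, 0 to 17.6%) were not nearest genes either. Both intervals include the 4.33% of all genes. Within 50000 bp of a TSS, 2 of the 18 (11.1%) and 0 of the 13 had a region, compared with 8.01% of all genes.

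Genes of TGF-β and BMP signalling had regions at 7 of 32 (21.9%, 11.02 to 38.8%). They included the ligand Tgfb3, the receptors Tgfbr1, Tgfbr2, Tgfbr3 and Acvr1, the BMP antagonist Nog and the latent TGF-β binding protein Ltbp1. All genes gave 4.33%. For all 3 libraries and for WT_HS alone the shares of this list were 75.0 and 65.6%, where all genes gave 27.5 and 36.6%. Tgfbr3, a coreceptor, was nearest to 4 regions, the strongest with 74 and 78 tags in an intron. Tgfbr2 had 70 tags in both libraries, Tgfb3 72 and 78 at its strongest region, and Nog 77 and 69. At these 4 regions the log2 density ratios ran from -0.04 to 0.22. Wnt pathway genes had regions at 4 of 26 (15.4%, 6.15 to 33.5%): the receptors Fzd1, with 51 and 155 tags, and Lrp5, with 88 and 67, the inhibitor Axin2, with 54 and 111, and the factor Tcf7l1, with 66 and 41. The log2 density ratios were 0.74 at Fzd1 and 0.42 at Axin2, and -0.08 and -0.07 at Lrp5 and Tcf7l1. Fzd1, Axin2 and Tcf7l1 were 227760, 64735 and 60813 bp from these regions, and 1 of the 26 genes (3.85%) had a region within 50000 bp of a TSS, compared with 8.01% of all genes. For all 3 libraries and for WT_HS alone the shares of the Wnt list were 53.8 and 65.4%.

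Actin and SRF or YAP target genes had regions at 4 of 22 (18.2%, 7.31 to 38.5%), with Actn1 the strongest. All genes gave 4.33%. The share of this list was 77.3% both for all 3 libraries and for WT_HS alone, where all genes gave 27.5 and 36.6%. Ccn1, a matricellular protein, had 88 and 56 tags, Palld, an actin-bundling protein, 67 and 35, and Filip1l 47 and 48. Extracellular matrix genes had regions at 4 of 28 (14.3%, 5.70 to 31.5%), and their share was 78.6% in each of the same 2 other classes. The collagen genes Col1a2 and Col6a3 had 71 and 48 tags and 46 and 134 tags, and the thrombospondin genes Thbs1 and Thbs2 had 72 and 128 and 62 and 44. Of the clock genes, 2 of 20 had a region (10.0%, 2.79 to 30.1%), an interval that includes the 4.33% of all genes. Nfil3, a repressor of clock output, had 104 and 143 tags at the GRE stretch 4902 bp upstream of its TSS, and Per2, whose gene glucocorticoids induce, had 67 and 61 tags in an intron.

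The published RNA-seq list of genes higher with LSD1 overexpression and lower with its knockdown was also set beside the regions. It was chosen on RNA of C2C12 cells by the same study, from genes that also differed between myogenic and adipogenic medium. Its genes were higher in myogenic medium, and it is not independent evidence. Of its 275 genes, 34 were nearest to a region (12.4%, 8.98 to 16.8%). The strongest were Mef2d, Sntb1, a syntrophin of the dystrophin complex, with 102 and 104 tags, Jarid2, a cofactor of Polycomb repression, with 122 and 79, and Akap6, an anchor of protein kinase A, with 104 and 77. For the opposite list, whose genes were lower in myogenic medium, 2 of 73 genes were nearest to a region (2.74%, 0.755 to 9.45%), Cdc7 and Glis1. The Glis1 region, in an intron 119127 bp downstream of the TSS, had 49 and 64 tags and scores of 51.2 and 152. It is apart from the Glis1 promoter, where the paper reports Lsd1 in both media. The stronger Cdc7 region, in an intron 146580 bp downstream, had 61 and 36 tags and scores of 108 and 55. Shares of the 275 genes were 17.5% for regions of WT_AD alone and 19.3% for regions of both wild-type libraries, for which all genes gave 6.36 and 8.04%. Hipk2 and Bcor were the genes of the longer list with a promoter region.

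**Figure D5:**
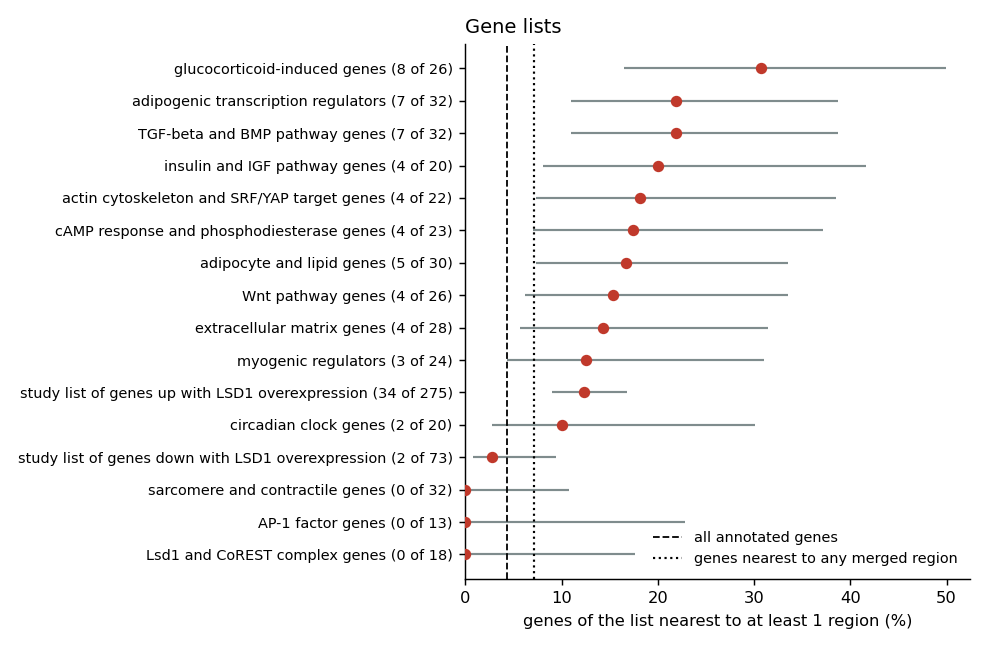
Share of the genes of each list, in percent, that are nearest to at least 1 region, with 95% Wilson intervals as bars and the counts in brackets, beside the share of all annotated genes (dashed, 4.33%) and of genes nearest to any merged region (dotted, 7.17%). Glucocorticoid-induced genes stand highest at 30.8%, and the sarcomere, AP-1 and CoREST lists are at 0.

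Some regions lay near others of the same kind. Another such region was within 50000 bp of 417 regions (30.02%, 27.7 to 32.5%), a share that was not computed for other classes. A WT_HS peak was within the same distance of 1307 (94.1%), so whether these regions group more than Lsd1 peaks in general was not tested. Gm14321, a noncoding gene, was nearest to 6 regions between chr2:167740027-167741222 and chr2:167844138-167845419, with 56 to 110 tags in WT_AD and 38 to 180 in OELsd1_AD. For 3 of them the nearest protein-coding gene was Cebpb, named after the values had been seen, the C/EBP factor induced first in adipogenesis, at 51709, 56899 and 103908 bp from its TSS. For the other 3 it was Ptpn1, a phosphatase that acts on the insulin receptor. Gm47754 and Gm12724, both noncoding, were nearest to 4 regions each, with 47 to 88 tags in WT_AD.

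Macroh2a3 was nearest to 6 regions and Gm20740 to 5, all on chromosome 15 from 62199699 to 63559995. For all 6 at Macroh2a3 the nearest protein-coding gene was Myc, at 217537 to 602924 bp. At these 11 regions, OELsd1_AD counts ran from 64 to 440 tags with deposited fold enrichments of 1.27 to 2.27, below the median of 2.32 for all 1389 regions, whose median count was 66 tags. All of them except the region with 64 tags had an OELsd1_AD count above that median. WT_AD counts ran from 77 to 152 tags with fold enrichments of 1.93 to 2.98, at or below the median of 2.98. The region with 440 tags was the longest of all, with 6359 bp. The files give no input tags by region, so whether the input was high there was not tested.

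The regions were spread over all chromosomes except Y. On chromosome 12, 77 of 1995 merged regions (3.86%) were of this kind, on chromosome 6 3.03%, and on chromosomes 7, 8 and 16 1.59, 1.68 and 1.68%, around the 2.45% of the genome as a whole. The largest numbers were on chromosomes 2 and 15, with 133 of 4552 merged regions (2.92%) and 121 of 4839 (2.50%), shares near that of the genome. The highest OELsd1_AD score, 2622, was at Ksr1, a scaffold of the MAP kinase pathway, where an intronic region had 129 tags in WT_AD and 520 in OELsd1_AD and a log2 density ratio of 0.67. This gene was named after its value had been seen.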

How the data were processed

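The processed files were the peak lists of 3 Lsd1 ChIP libraries, each called by the authors against its own input. Per the file headers, MACS 1.4.2 was used with a p cut-off of 1e-05 (the labels name MACS 1.41 and Bowtie2, with mm10), after duplicates had been limited and the smaller library scaled up. Each deposited row holds a position, a count of ChIP tags, a score (10 times −log10 p), a ratio (fold enrichment over the local background) and an FDR in percent, at most 0.73 in these files. No file column of other samples was used, and reads were not analysed here. Libraries held 46155625 to 63915769 filtered ChIP tags.

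Merging, nearest TSS (31647 curated RefSeq TSSs of 26180 genes, mm10) and motif counts were run in Python 3.11.15 with pandas 2.3.3 and SciPy 1.17.1 and tested on simulated data. Values at a region are those of its highest-scoring peak per library. No test was made, as each condition has 1 library. Regions and lists were chosen with earlier results of these data known. Lists came from general knowledge and from 2 published RNA-seq lists, of which 1 name found no gene. Named were the 15 regions with the highest lower score, the 10 highest at promoters, up to 4 genes per list, the 5 genes nearest to most regions (ties in alphabetical order), the 8 highest with a GRE, and the 3 regions just inside and outside the rule. The C/EBP share was tried under the alternatives after the data had been seen. The sequences were read from the RefSeq mm10 genome, and 1 of the 8 GRE stretches is not reported here.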

Additional observations from a re-analysis of the deposited data

How the results depend on the processing

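With 1 library per condition, no replicate could be left out, and no paired analysis was possible because the groups compared share fewer than 2 replicates. The number of regions moved from 1389 to 542 with an FDR of at most 0.1%, 730 with scores of at least 100 and 2199 with equal numbers of the highest-scoring peaks, and the genes from 1134 to 479 and 631 under the stricter FDR and score. Of the 1389 regions, 241, 363 and 873 were overlapped by a region kept in these settings, and 725 with ChIP tags not scaled up. The promoter share was 7.56% with the stricter FDR, 14.6% with equal numbers, 11.3% without scaling, and 6.62 and 19.4% with windows of 1000 and 5000 bp, in each case below that of all merged regions under the same setting. The glucocorticoid-induced genes fell from 8 to 2 and 4 with the stricter FDR and score. The GRE share stayed within its interval in 11 alternatives, from 1.08 to 1.94%, and was above that of all merged regions in the 9 where both were computed. The C/EBP share was 12.8 and 27.5% with 200 and 500 bp searched, against 7.90 and 18.9% of all merged regions. The median log2 density ratio was 0.11 with the stricter FDR, 0.18 with equal numbers, 0.14 without scaling and 0.11 with pairwise overlap. Fewer peaks enter under the stricter FDR and score, and the cause was not tested for the other moves.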
